A study of Mus musculus with 18 samples.

Results

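The genes described here are Foxo1, Foxo3 and Foxo4, which encode FoxO transcription factors, Irs1 and Irs2, which encode insulin receptor substrates, Pdk2 and Pdk4, which encode pyruvate dehydrogenase kinases, and Sgk1 and Sgk3, which encode serum and glucocorticoid regulated kinases. They were chosen by symbol, and 8 of the 9 had a probe set with that single symbol on the array, out of 17097 genes so named. Irs2 had none and was not analysed here. The 8 genes had 13 probe sets in all, and the brightest over all arrays stood for the gene. Expression was measured on Affymetrix arrays in bone marrow derived macrophages, which are cells grown from marrow with the growth factor CSF1. All groups came from male C57BL/6 mice aged 10 weeks, 3 animals in all. The marrow was cultured for 1 week with human recombinant CSF1 at 10000 U/ml and fetal calf serum at 10%, and the cells were replated in both. The 6 groups were cells at baseline and cells kept with the synthetic glucocorticoid dexamethasone at 100 nM for 1, 2, 4, 10 or 24 h, with 3 arrays each. The groups at 1 to 24 h have no untreated group of the same time, so time after the baseline harvest and dexamethasone cannot be told apart.

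Insulin and related growth factors act through a receptor that phosphorylates IRS adaptors, which recruit phosphatidylinositol 3-kinase. The lipid it makes activates the kinases AKT and SGK. Both can phosphorylate FoxO factors, which then leave the nucleus and stop driving genes of cell cycle arrest, stress defence and fasting metabolism. Pyruvate dehydrogenase kinases switch off the enzyme that feeds pyruvate into the citric acid cycle, and Pdk4 is a known FoxO target in muscle and liver. Glucocorticoids are known inducers of Sgk1, Irs2, Pdk4 and FoxO genes in muscle, liver or fat, and Sgk1 was named for this response.

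Sgk1 rose at every time after dexamethasone, by 1.84-fold at 1 h and 2.14-fold at 4 h. The other 6 genes tested, Sgk3, Foxo1, Foxo3, Foxo4, Irs1 and Pdk2, passed the threshold at no time. Pdk4 was too dim to be tested. The threshold was an adjusted p under 0.05 in limma, with Benjamini-Hochberg adjustment over the 13210 genes tested. Genes were tested if at least 3 arrays reached the 40th percentile of the array. Sgk1 was thus the 1 of 7 tested genes called higher at each time, where 0.303% of all tested genes were called higher at 1 h, 1.57% at 2 h, 4.49% at 4 h, 8.27% at 10 h and 7.37% at 24 h. Called in either direction were 0.386% of all tested genes at 1 h, 2.14% at 2 h, 7.51% at 4 h, 14.4% at 10 h and 12.7% at 24 h. The calls concern 1 gene and do not speak for the families. Of the 7 tested, Foxo1, Irs1 and Pdk2 lay below the background level given in the next paragraph on every array. A change that stays below that level would not be detectable. The median log2 change of the 7 genes at 24 h was 0.08, beside 0.01 over all tested genes. The 5 comparisons share the baseline arrays.

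The series design text calls the 3 arrays of a group biological replicates, and the labels do not say which mouse or culture each came from. P-values therefore measure the spread between these arrays, whose number limits the precision. Replicates correlated at 0.995 to 0.997 over the tested genes. All 8 macrophage markers looked at lay above background on every array, with a summed intensity of 24048 to 24404 at 24 h and 23078 to 23734 at baseline. Background was taken as 3.87 log2. This is the 95th percentile of 40 control probe sets, averaged over the arrays. Of the 5 named neutrophil markers, 2 lay above background on every array and Elane lay below it on all. The summed intensity of those 5 was 169 to 258 at baseline, 199 to 218 at 1 h, 212 to 231 at 2 h, 163 to 217 at 4 h, 133 to 189 at 10 h and 109 to 134 at 24 h. Cd3d and Cd3g of T cells, Ms4a1 and Pax5 of B cells, Col1a1, Col1a2 and Col3a1 of stromal cells, Adipoq of adipocytes, Alas2 of erythroid cells and Zbtb46 of dendritic cells were below background on every array. Other markers of the same lists were not, since Cd3e (median 4.69 log2) and Cd79b (median 5.55 log2) lay above it on all 18 arrays, Epor on 16, Klf1 on 13, Pdgfrb on 10, Cd247 on 3, Cxcl12 on 2, and Cd79a and Flt3 on 1 each. For RNA quality, the signal of the Gapdh control at its 3' end exceeded that at its 5' end by 0.15 to 0.20 log2 on average in the groups given dexamethasone and by 0.06 at baseline. The part of these shifts in the results below was not tested.

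Sgk1 lies on chromosome 10 of the GRCm38.p6 assembly, at chr10:21882184-21999903 on the forward strand, and RefSeq gives it 6 transcription starts. Its promoter windows are shown because it was the member that rose, and because 1 of them holds a full binding element of the glucocorticoid receptor. The element searched was AGAACA, then 3 bases of any kind, then TGTTCT, on both strands, in windows from 250 bases before to 50 bases after each start. Of 32851 such windows in RefSeq's table, 3 held it, which is 0.00913%, and those 3 belonged to Sgk1, Acnat2 and Gm35041. In Sgk1 it lay at chr10:21993701-21993715, 189 to 175 bases before the 5th start. The first sequence below gives the 250 bases before the 5th start, chr10:21993640-21993889, with the element in capitals. The other gives the 250 bases before the 6th start, chr10:21994416-21994665, which holds no full element but has TATAA, in capitals, with its first base 11 bases before the start. Both are printed 5′ to 3′ from RefSeq, GRCm38.p6, forward strand.
Sgk1 before start 5: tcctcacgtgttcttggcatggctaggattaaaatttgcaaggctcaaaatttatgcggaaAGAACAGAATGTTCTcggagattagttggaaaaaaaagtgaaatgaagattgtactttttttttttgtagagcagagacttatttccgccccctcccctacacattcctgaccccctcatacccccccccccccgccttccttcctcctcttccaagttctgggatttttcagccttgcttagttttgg
Sgk1 before start 6: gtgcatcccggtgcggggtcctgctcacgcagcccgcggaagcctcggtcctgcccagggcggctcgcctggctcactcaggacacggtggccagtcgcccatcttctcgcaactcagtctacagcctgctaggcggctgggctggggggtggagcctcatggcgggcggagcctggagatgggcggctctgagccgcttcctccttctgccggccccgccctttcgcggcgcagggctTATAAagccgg

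The element lay 965 bases before the 6th start. A looser form, GNACA and TGTNC with 3 bases of any kind between them, was present in 0.475% of all windows and the core ACANNNTGT in 6.85%. In the window of the 5th Sgk1 start both overlapped the full element. The 6-base motif AGAACA was in 19.0% of windows, and in Sgk1 it was found at the 1st, 4th and 5th starts, where 1 of the matches at the 5th lay outside the full element. The core was also matched once at the 2nd start. The FoxO motif GTAAACA was in 3.65% of all windows and in 0 of the 13 windows of the 7 members that have one (Foxo1, Foxo3, Irs1, Irs2, Pdk2, Pdk4 and Sgk1). These are matches of letters and do not show binding. Acnat2 was tested and not called at any time, with a log2 change of -0.23 at 24 h (adjusted p = 0.252, limma), and Gm35041 was not named on the array. Sgk1 has 1 named probe set, and which start its signal came from was not tested.

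The 3 baseline arrays gave Sgk1 9.46, 9.62 and 9.47 log2 intensity. At 1 h the arrays read 10.38, 10.44 and 10.39, at 2 h 10.50, 10.53 and 10.53, and at 4 h 10.58, 10.60 and 10.67. At 10 h they read 10.19, 10.28 and 10.14, and at 24 h 10.18, 10.04 and 10.02. Every treated array lay above every baseline array, the 3 arrays of 4 h were the highest of the 18, and those of 10 and 24 h lay between the baseline arrays and those of 1 to 4 h. RNA came from whole cultures, so a larger share of cells with the transcript and more of it per cell cannot be told apart.

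**Figure D1:**
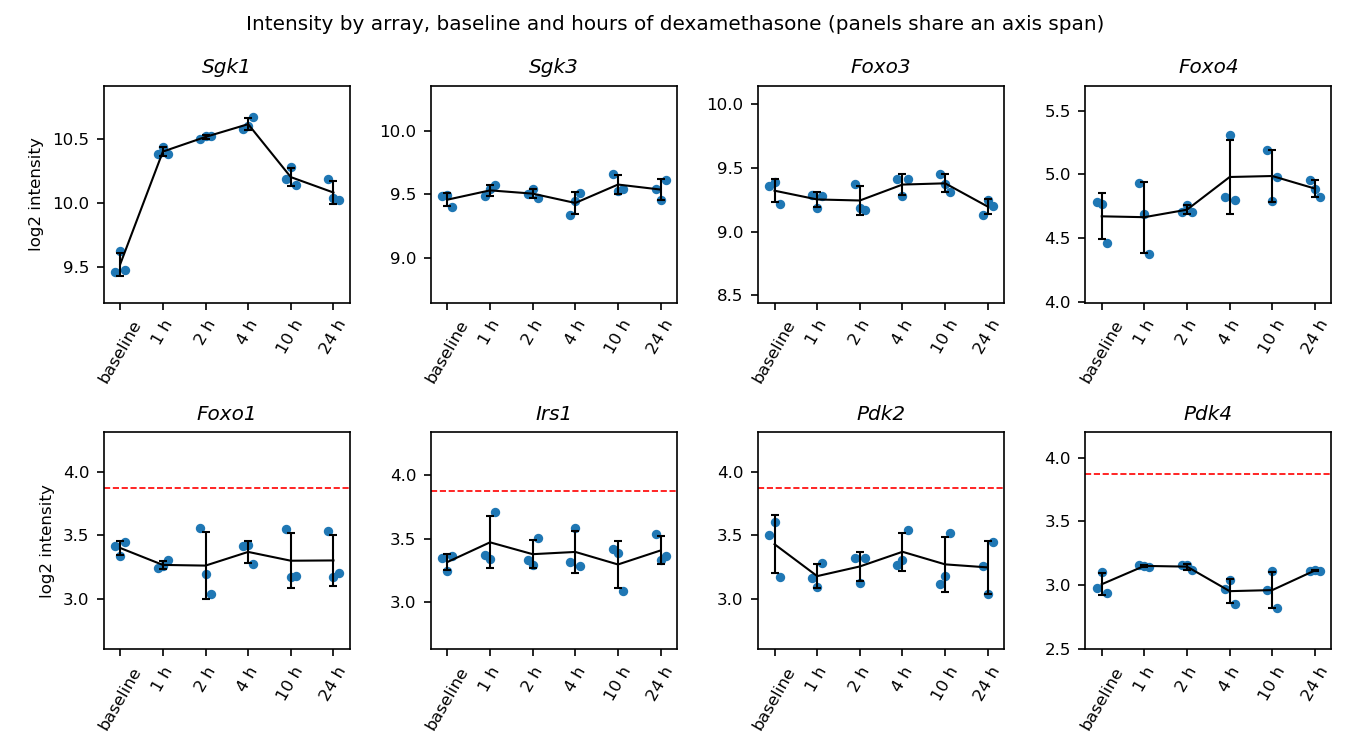
Log2 intensity of the 8 genes on each array (points), with the mean and SD of 3 arrays per group at baseline and after 1 to 24 h of dexamethasone, on panels that share the span of the vertical axis (dashed line: the background level of 3.87). Sgk1 leaves its baseline range at every time, and Foxo1, Irs1, Pdk2 and Pdk4 lie below background on all arrays.

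Sgk1 was higher by 0.88 ± 0.05 log2 at 1 h (SE, n = 3 arrays per group, limma adjusted p = 6.52e-11), a fold change of 1.84 with a 95% interval of 1.71 to 1.99. The rise was 1.00 ± 0.05 at 2 h (adjusted p = 1.33e-12) and 1.10 ± 0.05 at 4 h (adjusted p = 1.25e-13), where the fold change was 2.14 with an interval of 1.98 to 2.31. It was 0.68 ± 0.05 at 10 h (adjusted p = 7.47e-10) and 0.56 ± 0.05 at 24 h (adjusted p = 2.48e-08), or 1.48-fold with an interval of 1.37 to 1.59. Among all tested genes the rise ranked 11th at 1 h, 43rd at 2 h, 76th at 4 h, 227th at 10 h and 328th at 24 h. The F test over the 5 times gave an adjusted p of 4.45e-13 for Sgk1, the 1 gene of the 7 called, where 17.4% of all tested genes were called.

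The steps between neighbouring times were tested as well. From 1 to 2 h Sgk1 changed by 0.11 ± 0.05 log2 (unadjusted p = 0.0425, adjusted p = 0.711, limma). From 2 to 4 h it changed by 0.10 ± 0.05 (unadjusted p = 0.0746, adjusted p = 0.515, limma), and neither step passed. The arrays did not overlap, with 10.38 to 10.44 at 1 h, 10.50 to 10.53 at 2 h and 10.58 to 10.67 at 4 h. The steps therefore do not show that Sgk1 was level after 1 h, and 4 h against 1 h was not tested. No member was called in those steps, where 1.12% and 1.9% of all tested genes were called. From 4 to 10 h Sgk1 fell, with a log2 change of -0.41 ± 0.05 (adjusted p = 2.00e-05), and 1.82% of tested genes were called lower and 4.17% in either direction in that step. From 10 to 24 h the Sgk1 change was -0.12 ± 0.05 (unadjusted p = 0.0337, adjusted p = 0.326, limma). In that step 2.16% of all tested genes were called in either direction and none of the 7 members. All 3 arrays of 24 h read below those of 4 h and above those of baseline. The summed neutrophil markers were 133 to 189 at 10 h and 163 to 217 at 4 h, and their part in the Sgk1 step was not tested.

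**Figure D2:**
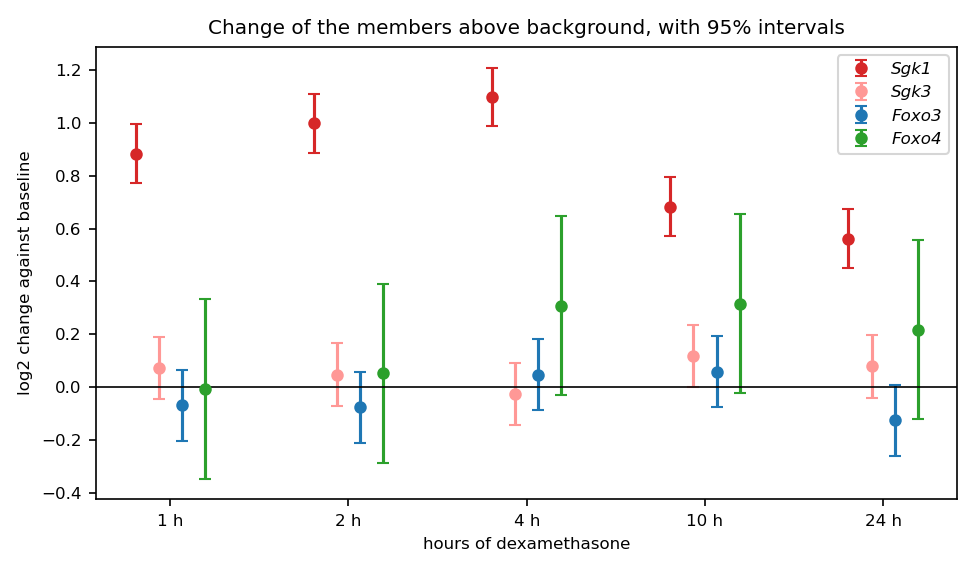
Log2 change against baseline with 95% intervals from limma for the 4 genes above background on every array, at 1, 2, 4, 10 and 24 h (n = 3 arrays per group). The intervals of Sgk1 lie wholly above 0 at all 5 times, with the highest point at 4 h (1.10), while no value of Sgk3, Foxo3 or Foxo4 passed the adjusted threshold.

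By the rule of highest Pearson correlation over the 18 arrays, the tested genes most like Sgk1 were Tagap (r = 0.941), Klf4 (r = 0.933) and Thbd (r = 0.932). Klf4 encodes a zinc finger transcription factor and Thbd thrombomodulin, an anticoagulant receptor. These correlations rest on the same arrays and the same 6 groups and are given as a description. Tagap changed by 0.55 log2 at 1 h, 0.78 at 2 h, 0.73 at 4 h, 0.62 at 10 h and 0.50 at 24 h. Klf4 changed by 1.08, 1.97, 1.91, 1.00 and 0.90 log2 at the same times, so it too was highest at 2 to 4 h. Thbd changed by 1.45, 1.88, 2.04, 1.35 and 1.40 log2, with its highest value at 4 h as for Sgk1.

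**Figure D3:**
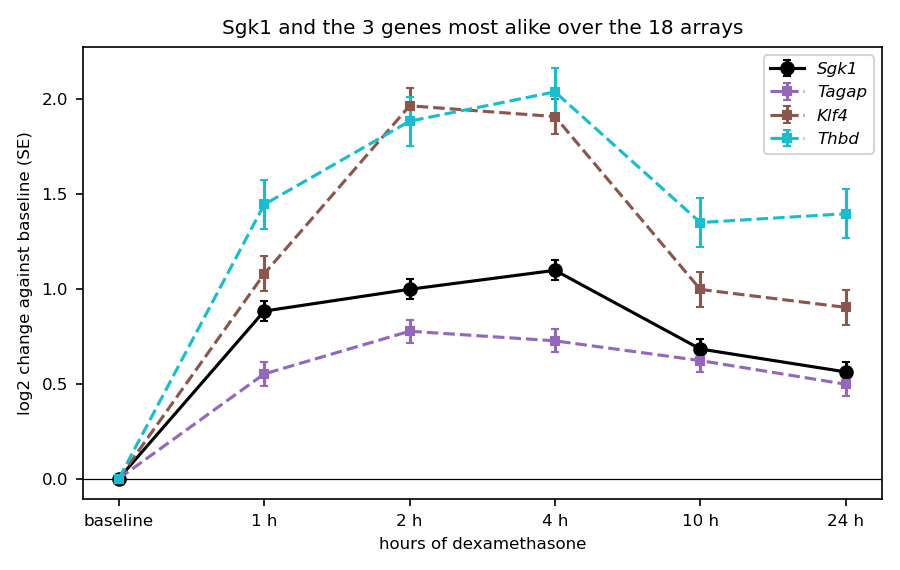
Log2 change against baseline (mean and limma SE, n = 3 arrays per group) of Sgk1 and of the 3 tested genes with the highest correlation with it over 18 arrays. All 4 lines are highest at 2 or 4 h and lower at 10 h, and Klf4 and Thbd change by more log2 units than Sgk1.

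Sgk3, the family member that binds endosomal phosphoinositides, lies at chr1:9798130-9902570. Its brightest probe set read 9.48, 9.49 and 9.40 log2 at baseline and 9.48, 9.54 and 9.57 at 1 h, then 9.50, 9.54 and 9.47 at 2 h and 9.34, 9.45 and 9.51 at 4 h. At 10 h it read 9.66, 9.53 and 9.54, and at 24 h 9.54, 9.46 and 9.62. On this probe set the arrays of 10 h lay just above those of baseline, and at the other times the groups overlapped. How many of all tested genes separate in this way was not counted. The largest change of this probe set against baseline was 0.12 ± 0.06 log2 at 10 h (adjusted p = 0.193, limma). Among the brightest probe sets of the 6 tested genes other than Sgk1, this was the 1 comparison with baseline with an unadjusted p under 0.05. Of their steps, Sgk3 from 4 to 10 h (0.14, unadjusted p = 0.019 in limma, adjusted p = 0.195) and Foxo3 from 10 to 24 h (-0.18, unadjusted p = 0.00976 in limma, adjusted p = 0.187) were also under it. The other Sgk3 probe sets changed by -0.18 to 0.06 and by -0.16 to -0.01 log2 over the 5 times, with no adjusted p under 0.257 (limma). At 10 h they changed by 0.03 and -0.01. Where they separated from baseline, they lay below it. The first read 7.47 to 7.59 at 1 h and 7.69 to 7.74 at baseline. The second read 8.08 to 8.15 at 4 h and 8.16 to 8.38 at baseline.

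Foxo3, a FoxO factor expressed in many tissues, lies at chr10:42181845-42276695. Its brightest probe set read 9.36, 9.39 and 9.22 log2 at baseline, 9.29, 9.19 and 9.28 at 1 h, 9.37, 9.19 and 9.17 at 2 h and 9.41, 9.28 and 9.42 at 4 h. It read 9.45, 9.38 and 9.31 at 10 h and 9.13, 9.25 and 9.20 at 24 h. Each treated group overlapped the baseline arrays. The largest change was -0.12 log2 at 24 h, with a 95% interval of -0.26 to 0.01 (adjusted p = 0.24, limma). The direction was not shared by the next brightest Foxo3 probe set, which changed by 0.14 at 24 h (adjusted p = 0.385, limma). The dimmest changed by 0.13 (adjusted p = 0.619, limma) but lay below background on all arrays of both groups, so it gives no direction. The next brightest probe set read 7.82, 7.79 and 7.66 log2 at 4 h, against 7.53, 7.34 and 7.58 at baseline. Its change of 0.28 log2 had an adjusted p of 0.0849, the lowest for any value of a member other than Sgk1 under any setting tried, and the brightest probe set changed by 0.05 at that time.

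Foxo4, an X-linked FoxO factor at chrX:101254261-101260873, was measured closer to background. It read 4.78, 4.77 and 4.46 log2 at baseline, 4.93, 4.69 and 4.38 at 1 h and 4.70, 4.76 and 4.71 at 2 h. It read 4.83, 5.31 and 4.80 at 4 h, 5.19, 4.79 and 4.98 at 10 h and 4.96, 4.89 and 4.83 at 24 h. The arrays of 4, 10 and 24 h lay above all 3 baseline arrays, which these comparisons share. How many of all tested genes separate in this way was not counted. Pdk4, below background on every array, did so too at 1, 2 and 24 h. The changes were 0.31 log2 at 4 h with an interval of -0.03 to 0.65 (adjusted p = 0.337, limma) and 0.32 at 10 h (adjusted p = 0.231), so neither change passed. Leaving out 4 h replicate 2 lowered the Foxo4 change at 4 h to 0.14, and leaving out baseline replicate 3 lowered it to 0.20. The other Foxo4 probe set lay at 3.41 to 3.92 log2, near background, and changed by -0.04 at 4 h and 0.10 at 10 h.

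**Figure D4:**
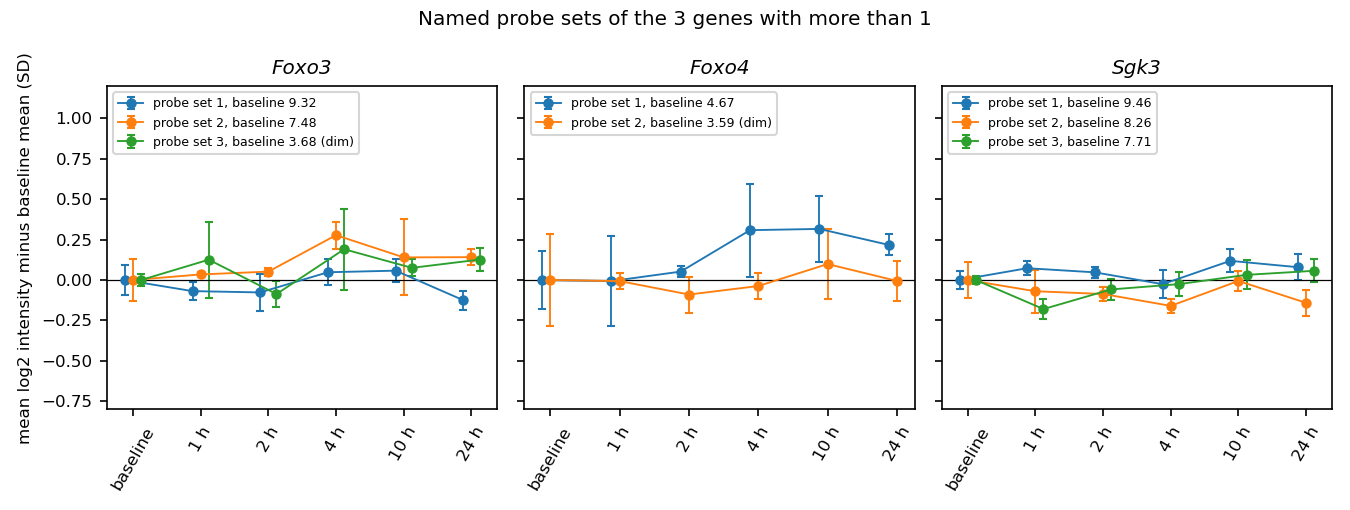
Mean log2 intensity minus the baseline mean (SD, n = 3 arrays) for every named probe set of Foxo3, Foxo4 and Sgk3, by group. The legend gives each baseline mean and marks as dim a probe set whose means lie below background, and at 4 h the second Foxo3 probe set lies 0.28 above its baseline mean while the brightest lies 0.05 above it.

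The remaining members lay below background on every array. Foxo1, the FoxO factor best known from liver and fat, at chr3:52268337-52350109, read 3.04 to 3.56 log2 over the 18 arrays. Irs1, at chr1:82233105-82291439, read 3.09 to 3.71. Pdk2, at chr11:95026258-95041371, read 3.04 to 3.61, and Pdk4, at chr6:5483351-5496278, read 2.82 to 3.16. No fold is given for these 4 genes, since both sides of each comparison were at background. A change that stays below background would not be detectable here.

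The genes around these members were taken from 5 lists. The lists were chosen with earlier results of these data known. Their shares of called genes are therefore a description and do not show an excess over all tested genes. Of all tested genes, 0.0833% were called lower at 1 h, 0.575% at 2 h, 3.02% at 4 h, 6.15% at 10 h and 5.34% at 24 h, and the shares called higher are given above for Sgk1. Of the insulin receptor to AKT list, 23 of 27 genes were tested, and 9 were called at 1 or more times, which is 39.1% beside 20.5% of all tested genes. None was called at 1 h. Higher and lower calls numbered 2 and 0 at 2 h, 3 and 2 at 4 h, 5 and 2 at 10 h, and 5 and 2 at 24 h. At 24 h this was 30.4% of the list, beside 12.7% of all tested genes, and the list's median change at that time was 0.04 log2. Pik3r1, the p85 alpha regulatory subunit of phosphatidylinositol 3-kinase, was 10.38 ± 0.01 log2 at 4 h and 9.69 ± 0.07 at baseline (SD, n = 3 each), a rise of 0.69 ± 0.05 (adjusted p = 3.99e-10, limma). It was called higher at 2, 4, 10 and 24 h. Insr, the insulin receptor, was 7.94 ± 0.20 log2 at 10 h and 7.12 ± 0.18 at baseline, a rise of 0.82 ± 0.11 (SE, adjusted p = 3.41e-06, limma). The mean over all Insr probe sets changed by 0.27 (adjusted p = 0.0501, limma), so the size and the call depend on the probe sets used. Whether the others change less or are too dim was not looked at. Igf1, the insulin-like growth factor that macrophages secrete, was 11.14 ± 0.09 log2 at 24 h and 11.87 ± 0.03 at baseline, with a change of -0.72 ± 0.06 (adjusted p = 8.49e-10). Inpp4b, a lipid phosphatase, changed by 0.82 ± 0.23 at 24 h (adjusted p = 0.0186). Leaving out baseline replicate 2 gave Inpp4b an adjusted p of 0.0501, leaving out baseline replicate 3 gave 0.0753, and leaving out 24 h replicate 1 gave 0.105. Without an intensity trend it was 0.056, and the mean of the Inpp4b probe sets changed by 0.43 (adjusted p = 0.0467).

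Of the other members of the families, 3 of 6 were tested and 2 were called at 1 or more times, or 66.7%, beside 20.5% of all tested genes. Pdk1, the pyruvate dehydrogenase kinase induced by hypoxia, was 9.17 ± 0.03 log2 at 24 h and 9.52 ± 0.04 at baseline (SD, n = 3 each), a change of -0.35 ± 0.06 (adjusted p = 2.45e-04, limma). Irs4 was called lower at 4 h but lay below background on every array and gets no fold, and its adjusted p lay between 0.0351 and 0.169 over the alternatives. Of the pyruvate dehydrogenase complex and its phosphatases, 7 of 8 were tested and 2 were called at any time, or 28.6%, beside 20.5% of all tested genes. Pdp1, the catalytic subunit of a phosphatase that reverses the kinases' action, was 7.80 ± 0.02 log2 at 4 h and 8.36 ± 0.12 at baseline, a change of -0.56 ± 0.08 (adjusted p = 1.09e-05), and it was also called lower at 2 and 10 h. Pdpr, the regulatory subunit of that phosphatase, changed by 0.30 ± 0.09 at 10 h (adjusted p = 0.0268), a call that depended on the probe set, on the intensity trend and on single arrays. Leaving out baseline replicate 1 gave Pdpr an adjusted p of 0.0779, leaving out baseline replicate 3 gave 0.0951, and leaving out 10 h replicate 2 gave 0.134. Without an intensity trend it was 0.0626.

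Of genes known as FoxO targets in other cells, 24 of 30 were tested and 11 were called at 1 or more times, or 45.8%, beside 20.5% of all tested genes. Higher and lower calls numbered 1 and 0 at 1 h, 1 and 2 at 2 h, 2 and 1 at 4 h, 4 and 3 at 10 h and 2 and 3 at 24 h, so they did not go one way. The list's median change was 0.00 log2 at 24 h. The list joins genes that FoxO factors drive with genes they are known to repress, such as Ccnd1. The counts and the median therefore give no direction of FoxO output. Cited2, a transcriptional coregulator, was 10.35 ± 0.09 log2 at 1 h and 9.78 ± 0.10 at baseline (SD, n = 3 each), a rise of 0.57 ± 0.08 (adjusted p = 7.40e-05, limma) that was no longer called at 10 h. Cdkn1b, the cell cycle inhibitor p27, was 8.19 ± 0.07 log2 at 10 h and 7.58 ± 0.17 at baseline, a rise of 0.61 ± 0.09 (adjusted p = 1.96e-05). With the probe set of largest variance the change of Cdkn1b was 0.40 (adjusted p = 0.43). Gadd45a, a growth arrest and DNA damage gene, was 7.29 ± 0.13 log2 at 4 h and 8.16 ± 0.03 at baseline, a change of -0.88 ± 0.11 (adjusted p = 4.53e-06). Ccnd1, cyclin D1, which FoxO factors are known to repress, was 11.19 ± 0.06 log2 at 24 h and 11.65 ± 0.13 at baseline, a change of -0.46 ± 0.06 (adjusted p = 7.99e-06). Ccnd2, cyclin D2, of the same list went the other way, with a called change of 0.42 ± 0.11 at 10 h (SE, adjusted p = 0.00874, limma).

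Of 6 genes whose proteins are SGK substrates, 5 were tested. At 1 or more times 3 were called higher, or 60%, and none lower, where 20.5% of all tested genes were called in either direction. As for the other lists, this share does not show an excess, and it rests on 5 genes. Higher calls numbered 0 at 1 h, 1 at 2 h, 3 at 4 h, 3 at 10 h and 2 at 24 h. Of all tested genes, 0.303% were called higher at 1 h, 1.57% at 2 h, 4.49% at 4 h, 8.27% at 10 h and 7.37% at 24 h. Wnk1, a kinase that controls ion cotransporters, was 11.76 ± 0.08 log2 at 10 h and 10.93 ± 0.14 at baseline (SD, n = 3 each), a rise of 0.84 ± 0.06 (adjusted p = 5.95e-11, limma). Ndrg1, whose phosphorylation is used as a readout of SGK1 activity, was 9.39 ± 0.15 log2 at 10 h and 8.85 ± 0.08 at baseline, a rise of 0.54 ± 0.08 (adjusted p = 1.41e-05). Nedd4l, a ubiquitin ligase, changed by 0.25 ± 0.08 at 4 h (adjusted p = 0.0419), a call lost under 11 of 28 alternatives. The mean of the Nedd4l probe sets changed by 0.16 (adjusted p = 0.288), and the adjusted p was 0.11 without an intensity trend, 0.0724 with only the groups compared and 0.0515 with the evenly stepped values of baseline replicate 1 kept. It was 0.089 when baseline replicate 1 was left out and 0.264 for baseline replicate 3. Leaving out 4 h replicates 1, 2 and 3 in turn gave 0.0774, 0.0708 and 0.169, and leaving out 24 h replicates 1 and 2 gave 0.0507 and 0.0501. These are transcript levels, and phosphorylation of the proteins was not measured.

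**Figure D5:**
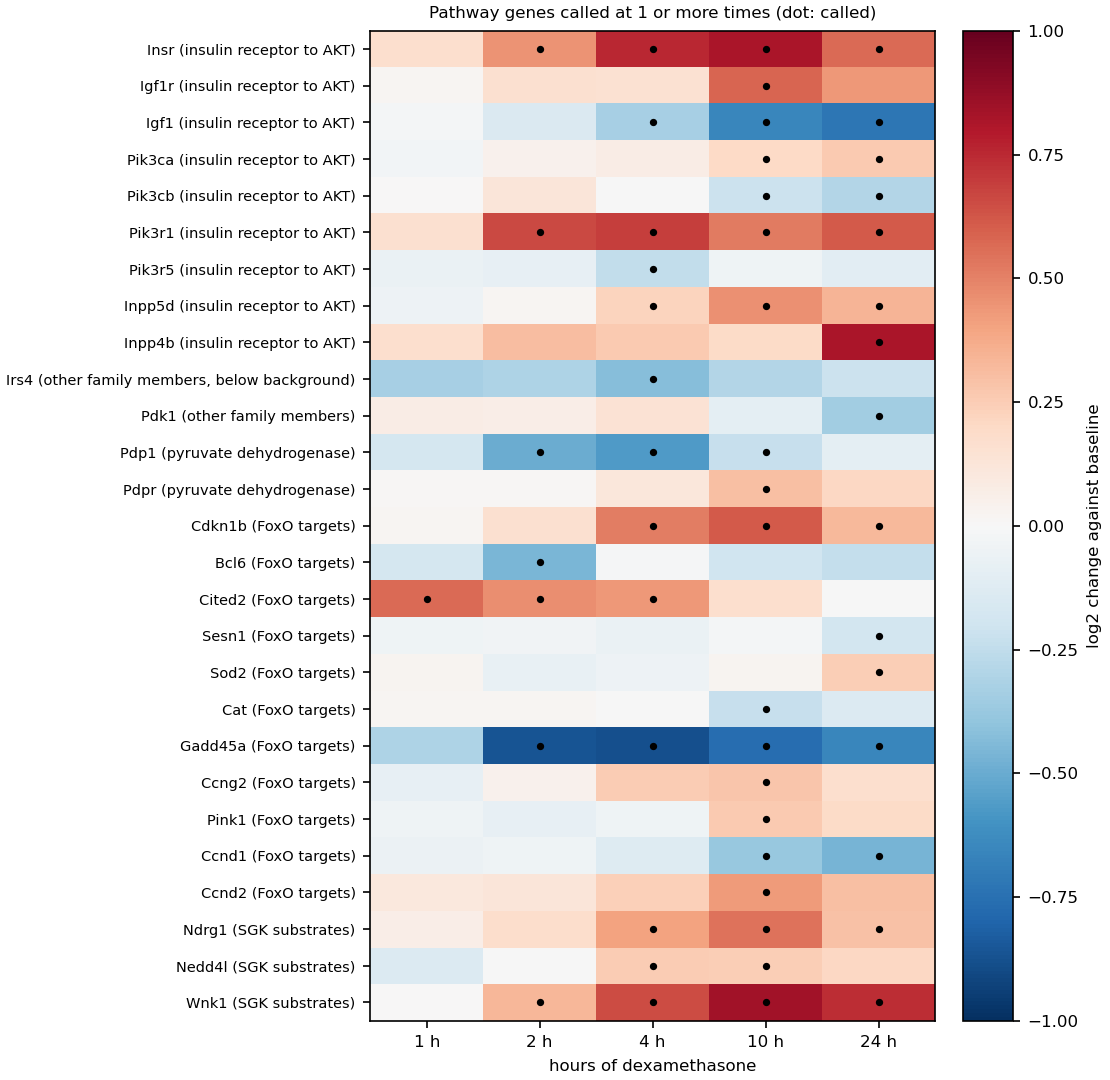
Log2 change against baseline at 1, 2, 4, 10 and 24 h (colour, scale from -1 to 1) of each listed gene called at 1 or more times, with a dot where it was called (adjusted p under 0.05, limma, n = 3 arrays per group). Insr, Pik3r1 and Wnk1 are higher from 2 h on, Igf1 and Gadd45a are lower, and at 1 h the only dot is that of Cited2.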

How the data were processed

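Each deposited value is the intensity of 1 probe set on 1 array. Per the submitters' processing notes it was made with RMA and affy, for which versions are not given in the sources used here. The authors' values are on a linear scale, and log2 was taken here. RMA makes the arrays' distributions alike, which takes out any shift common to most genes. Gene names came from the platform annotation, in which 28898 of 45141 probe sets have 1 symbol. Of the probe sets, 211 were left out because baseline replicate 1 holds an evenly stepped run there. None belonged to the genes described.

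Groups were taken from the sample titles. The 18 arrays were fitted with limma 3.58.1 in R 4.3.3 (lmFit, eBayes with an intensity trend, 1 mean per group), with Benjamini-Hochberg adjustment of two-sided p-values over all genes of a comparison. The fit was tested on simulated data. Named genes were the members, up to 4 called genes with the largest change of each list, and the 3 genes most correlated with a called member. Ccnd2 was added beside Ccnd1. The members and lists were chosen with earlier results of these data known. Alternatives covered the replicate block, trend, filter, probe set, scaling, adjustment, the stepped values, the arrays fitted and each array left out.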

Additional observations from a re-analysis of the deposited data

Results flagged for a closer look

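Several genes changed between neighbouring times, so their effects at those times differed by the test of the step itself (limma, Benjamini-Hochberg over all tested genes). From 4 to 10 h the log2 change was -0.41 for Sgk1 (adjusted p = 2.00e-05), -0.33 for Igf1 (adjusted p = 7.97e-04), -0.25 for Ccnd1 (adjusted p = 0.0191), -0.27 for Cited2 (adjusted p = 0.0499), -0.25 for Pdk1 (adjusted p = 0.0213) and 0.33 for Pdp1 (adjusted p = 0.0114). From 10 to 24 h Pdk1 changed by a further -0.25 (adjusted p = 0.0318). From 1 to 2 h the log2 change was 0.50 for Pik3r1 (adjusted p = 6.17e-07), 0.33 for Wnk1 (adjusted p = 0.00121), -0.55 for Gadd45a (adjusted p = 0.00806) and -0.32 for Pdp1 (adjusted p = 0.0325). From 2 to 4 h it was 0.32 for Wnk1 (adjusted p = 0.00245) and 0.35 for Cdkn1b (adjusted p = 0.0394). For Sgk1 and Cited2 the step moved back toward baseline, as it did for Pdp1 from 4 to 10 h, while Pdk1 crossed its baseline mean, with 9.52 log2 at baseline, 9.67 at 4 h and 9.42 at 10 h. For the other genes named here the steps moved away from baseline. Of the genes named here, only Sgk1 had its steps followed under the alternatives described below. Whether the step calls of the other genes hold under them was not checked, and several lie near the threshold. Explanations for these steps were not tested.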

How the results depend on the processing

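The count of called members was unchanged under the 34 alternatives of the 5 comparisons with baseline, the 33 of each of the 4 steps and the 32 of the F test, 18 of which leave out 1 array each. Sgk1 was called higher against baseline in 145 of 145 such values, with an adjusted p of at most 1.63e-05, and its change lay between 0.85 and 0.93 log2 at 1 h, 1.07 and 1.15 at 4 h and 0.51 and 0.61 at 24 h. Sgk1 has 1 named probe set, so choices of probe set leave its estimate as it was. Leaving out an array of neither group compared does the same, so the 145 values are not independent. None of 1533 values of the other members was called, with 0.0849 as the lowest adjusted p. These values include those of Foxo1, Irs1 and Pdk2, which lay below background on every array. A change that stays below background would not be detectable, so the count does not show that those genes were steady. Pdpr at 10 h turned to -0.45 log2 with the probe set of largest variance (adjusted p = 0.152), and was 0.21 with the mean of its probe sets (adjusted p = 0.0909). The cause was not tested.

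Same-numbered arrays of different groups correlated at 0.02 to 0.29 in their deviations from the group means, above 0.1 in 35 of 45 pairs, and differently numbered ones at -0.23 to 0.08. Each of the 18 arrays correlated best with its own number, a hint from the data and not the design, so the numbers were not taken as pairs. With the replicate block the members' counts stayed at 1 at each time, and over all genes the calls numbered 93 against 51 at 1 h, 432 against 283 at 2 h, 499 against 251 from 2 to 4 h, 943 against 551 from 4 to 10 h and 547 against 285 from 10 to 24 h.

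Counts over all genes also moved by over 1.5 times without an intensity trend (129 from 2 to 4 h, 319 from 4 to 10 h, 123 from 10 to 24 h), with the probe set of largest variance (142, 356 and 172 in those steps), with the mean of all probe sets (157 from 2 to 4 h), with only the groups compared (1254 against 1905 at 10 h, 344 from 4 to 10 h, 176 from 10 to 24 h) and with adjustment over the comparisons together (106 at 1 h). Leaving out 1 array lowered the calls over all genes to 90 from 1 to 2 h (1 h replicate 3, against 148), to 137 to 167 from 2 to 4 h (2 h replicates 1 and 2 and each of 4 h), to 315 and 334 from 4 to 10 h (4 h replicates 1 and 2) and to 143 from 10 to 24 h (24 h replicate 1). Genes below background cannot be ordered by these arrays.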
